A study of Mus musculus with 12 samples.

Results

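The genes described here encode C-type natriuretic peptide (CNP), its receptors and the cyclic GMP (cGMP) kinases that act behind them. The 7 genes are Nppc, Npr1, Npr2, Npr3, Prkg1, Prkg2 and Pde5a, chosen by symbol among 18193 genes that the MOE 430 2.0 array names by 1 symbol. They carry 14 of the 45101 probe sets of the array, and the probe set with the highest mean log2 signal stands for a gene. Tibiae were taken from CD1 mouse embryos at embryonic day 15.5, an outbred strain, without treatment, and cut by hand into 3 zones along their length. Zone I is the outer segment at either end, with resting and proliferating cells. In zone II, the next segment inward, chondrocytes about to enter hypertrophy or already in it prevail. Zone III is the innermost segment, with the latest hypertrophic cells and mineralized bone. RNA of a zone was pooled over the animals of a litter, and 4 arrays lettered A to D were hybridized per zone, 12 in all, from 4 litters that each formed a separate experiment.

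CNP is a secreted peptide that binds natriuretic peptide receptor B (Npr2), a membrane guanylyl cyclase that turns GTP into cGMP. Its natriuretic relatives ANP and BNP act through a sister cyclase (Npr1), and a further receptor (Npr3) takes up and clears the peptides. In cartilage cGMP activates type I and type II protein kinases (Prkg1, Prkg2), and phosphodiesterases such as Pde5a break it down. The pathway is known for promoting the lengthening of bones through the growth plate: mice that lack CNP, Npr2 or Prkg2 are dwarfed, and CNP signalling opposes the MAP kinase branch behind fibroblast growth factor receptor 3.

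Prkg2 and Pde5a were called in all 3 comparisons, in opposite directions from zone I to zone II and from zone II to zone III. Prkg2 signal was 8.42-fold higher in zone II than in zone I and fell 3.63-fold from zone II to zone III. Pde5a was lowest in zone II, where its mean signal was 2.46-fold below zone I and 5.57-fold below zone III. Npr2, the CNP receptor, was 1.67-fold lower in zone II than in zone I. Folds are ratios of geometric means, from mean log2 signals. Prkg1 and Npr3 passed the signal filter and were not called in any comparison, and Nppc and Npr1 did not pass it. With the array letter as a block, Npr3 (adjusted p = 0.0321) and Prkg1 (adjusted p = 0.0417) were called higher in zone II than in zone I. A gene was called at an adjusted p under 0.05 in limma's moderated test on log2 signals, adjusted by Benjamini-Hochberg over the 22255 probe sets whose mean signal reached 50 in 1 zone or more.

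Signals are arbitrary units on an array scale. The mean signal after trimming 2% of the probe sets at each end was 150 on every array, and the median lay between 32.4 and 43.3. A signal can be compared between arrays for 1 probe set, and not between probe sets, since probes differ in how strongly they bind. The arrays give no read depth, and their number, 4 per zone, limits the precision. Of the markers of the zones, all 8 prehypertrophic and hypertrophic markers rose into zone II, and all 12 markers of early chondrocytes fell from zone II to zone III. The summed signal of early chondrocyte markers was higher in zone II (41185 to 44299) than in zone I (27696 to 34446), with 5 of 12 called higher and 0 lower. Of 6 resting and periarticular cartilage markers tested, 4 fell into zone II. The osteoclast markers, 8 of 8, and the endothelial markers, 12 of 12, rose from zone II to zone III. Zone I array A carried the highest summed signal of skeletal muscle markers (2337, against 472 to 871 on the other zone I arrays). Zone II array A had the highest endothelial and osteoclast sums of its zone. The ratio of 3′ to 5′ Gapdh control signals, a sign of RNA integrity, was 1.98 to 2.28 in zone III and 1.25 to 1.76 in the other zones. The same ratio for actin ran the other way, with 1.70 to 2.02 in zone III against 2.09 to 3.23.

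**Figure D1:**
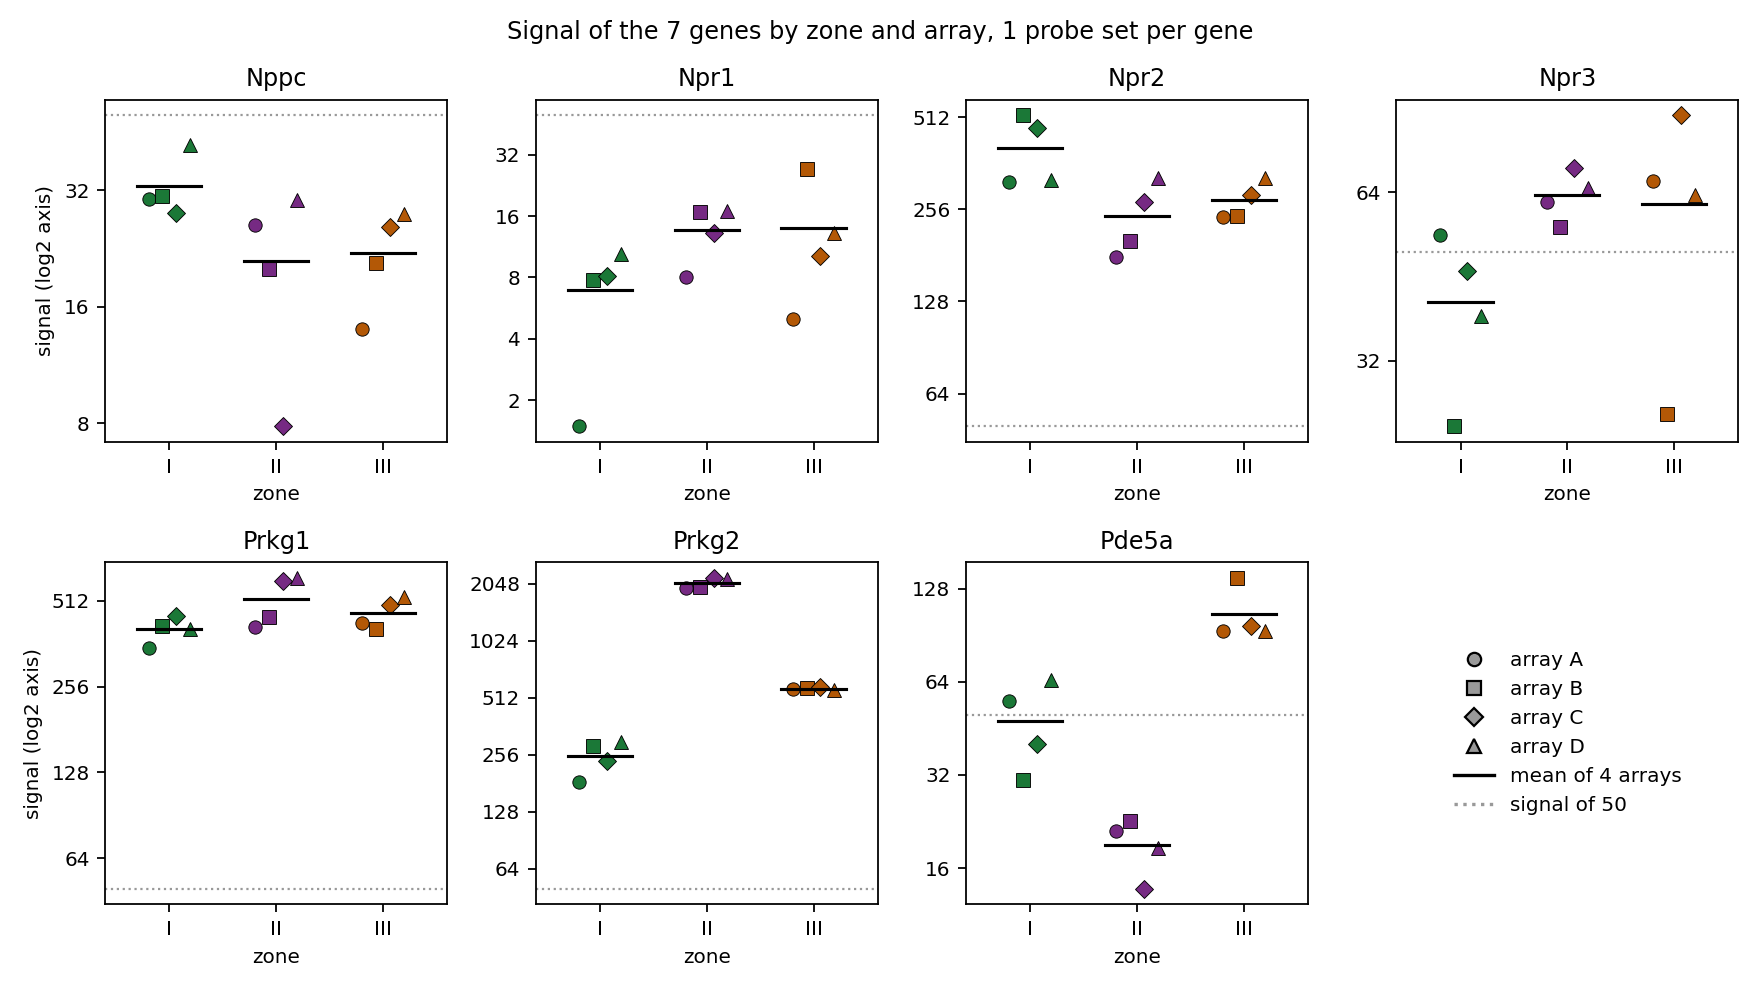
Signal (log2 axis) of the representative probe set of each gene on the 12 arrays, by zone; symbols mark the array letter, the line is the mean of 4 arrays and the dotted line is a signal of 50. Prkg2 separates all 3 zones, with zone II arrays from 1959 to 2211, while Pde5a is lowest in zone II and Nppc and Npr1 stay under 50 on every array.

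Nppc (probe set 1422790_at), the gene of CNP itself, gave signals of 30.3, 31.0, 27.9 and 42.0 on arrays A to D of zone I. Zone II gave 26.0, 20.1, 7.85 and 30.2. Zone III gave 14.0, 20.8, 25.7 and 27.8. All 12 values were under 50, and the lowest zone I array was just above the highest zone III array. In a fit over all probe sets without the filter, Nppc differed by -0.79 on the log2 scale between zones II and I (SE 0.39, adjusted p = 0.217). Between zones III and I the difference was -0.60 (SE 0.39, adjusted p = 0.355). No call was made for the ligand, and its interval for zone III against zone I ran from -1.45 to 0.25. No detection call was used, so signals this low were not told apart from the background of the array.

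Of the receptors, Npr2 (1427191_at) was called in 1 comparison. Its zone I arrays read 314, 519, 471 and 318. The zone II arrays read 179, 202, 270.0 and 324, and the zone III arrays 242, 243, 284 and 325. Zones I and II overlapped by a single array, since zone II array D was above zone I arrays A and D. The mean was 406 ± 105 (SD, n = 4) in zone I, against 244 ± 66.0 in zone II and 274 ± 39.5 in zone III. Npr2 fell by 0.74 on the log2 scale from zone I to zone II (SE 0.22, limma adjusted p = 0.0191). This call was lost without arrays B or C of zone I, without arrays A or B of zone II, with median centring, with array weights and without the filter, with adjusted p values of 0.0532 to 0.057. Within the run of the fluidics station that held array D of both zones, the difference between zones II and I was 0.03, against -1.17 and -1.01 within the other runs. The step from zone II to zone III (0.19, SE 0.22, adjusted p = 0.492) and the difference between zones III and I (-0.54, SE 0.22, adjusted p = 0.068) were not called. The latter passed under 6 alternatives, such as quantile normalization (adjusted p = 0.0338) and leaving out zone I array A (adjusted p = 0.0453). So zone I stood highest, and zones II and III, the neighbours in the order, did not differ beyond their spread.

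Npr1 (1449160_at), the receptor of the atrial and brain peptides, was near the floor of the array. Its signals were 1.49 to 10.4 across zone I, 8.09 to 16.9 across zone II and 5.01 to 27.2 across zone III. It did not pass the filter, and without the filter no difference between zones was called (adjusted p from 0.247 to 0.887).

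Npr3 (1435184_at), the clearance receptor, sat close to the filter. Zone I gave 53.7, 24.4, 46.2 and 38.5, and zone II gave 61.6, 55.4, 70.7 and 65.2. Zone III gave 66.9, 25.7, 87.8 and 63.3, a spread set by array B. All 4 zone II arrays were above all 4 zone I arrays, yet the difference of 0.69 on the log2 scale (SE 0.33) was not called (adjusted p = 0.128). With the array letter as a block the same difference was called (adjusted p = 0.0321). Without zone III array B, which enters the shared estimate of the spread, the difference of 0.69 had an adjusted p of 0.0309, and zone III against zone I moved from 0.51 (adjusted p = 0.256) to 0.88 (adjusted p = 0.0138). The other Npr3 probe sets, 1448024_at and 1450286_at, never exceeded 21.2 and did not pass the filter. In the fit without the filter, 1448024_at was higher in zone III than in zone II (log2 difference 1.12, adjusted p = 0.0339) and zone I (1.33, adjusted p = 0.019), all at signals up to 20.4.

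Prkg1 (1444232_at), the type I kinase known from smooth muscle and platelets, read 351, 416, 452 and 409 in zone I. Its zone II arrays read 416, 451, 599 and 617, and its zone III arrays 428, 407, 493 and 527. The zones overlapped in every comparison. Means were 407 ± 41.8, 521 ± 102 and 464 ± 55.9 (SD, n = 4 each), so zone II was highest and no neighbour in this order differed beyond its spread. Zone II against zone I gave 0.34 on the log2 scale (SE 0.15, adjusted p = 0.102), with a 95% interval from 0.01 to 0.67. Median centring (adjusted p = 0.0377), the array letter as a block (adjusted p = 0.0417) and leaving out zone II array A (adjusted p = 0.0424) each turned this into a call. In zone II the values of arrays C and D were above those of A and B. The other Prkg1 probe set past the filter, 1449876_at, had its zone II values split in the same way, at 148 and 156 against 70.8 and 36.6, and was not called in any comparison.

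Prkg2 (1435162_at), the membrane-bound type II kinase that growth plate chondrocytes are known to use, was called in every comparison. Zone I arrays A to D read 184, 286, 238 and 297. Zone II read 1959, 1975, 2211 and 2183, and zone III read 569, 579, 582 and 560.3. No array of 1 zone came near an array of another: the lowest zone III value was well above the highest of zone I, and the lowest zone II value well above the highest of zone III. Means were 251 ± 51.6, 2082 ± 134 and 572 ± 9.83 (SD, n = 4 each), which orders the zones II, III, I.

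On the log2 scale Prkg2 rose by 3.07 from zone I to zone II (SE 0.14, 95% interval 2.76 to 3.38, limma adjusted p = 2.64e-08). It fell by 1.86 from zone II to zone III (SE 0.14, adjusted p = 5.29e-07), and zone III remained 2.32-fold above zone I (log2 difference 1.21, adjusted p = 2.63e-05). The differences held within each of the 3 runs of the fluidics station, at 2.88 to 3.13, -1.93 to -1.78 and 0.94 to 1.31. The other probe sets of the gene showed the same order. 1435460_at read 216 to 297 across zone I, 978 to 1290 across zone II and 398 to 457 across zone III. 1421354_at read 42.0 to 57.7, 348 to 470.1 and 98.6 to 130. All 9 differences, 3 probe sets in 3 comparisons, were called and none had overlapping arrays. The size of the rise differed between probe sets, with 8.42-fold, 4.37-fold and 8.36-fold.

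**Figure D2:**
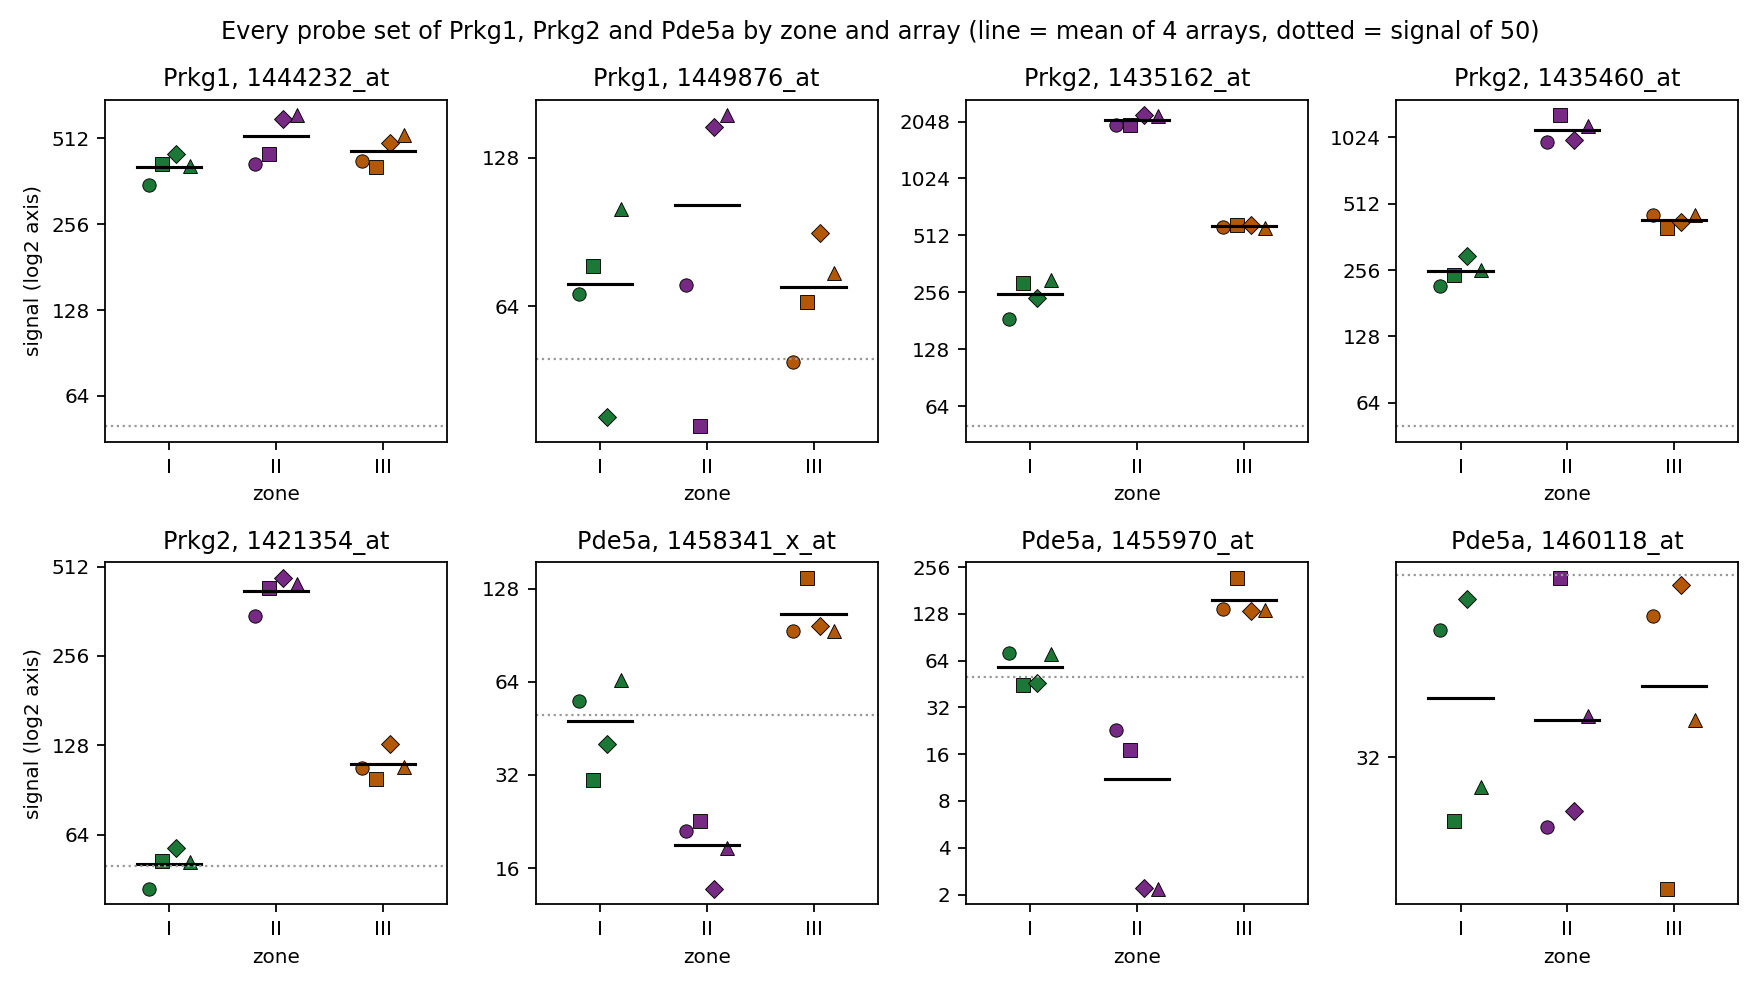
Signal (log2 axis) by zone for every probe set of Prkg1, Prkg2 and Pde5a; circles, squares, diamonds and triangles are arrays A to D, the line is the mean of 4 arrays and the dotted line a signal of 50. The 3 Prkg2 probe sets order the zones alike, as do 2 of the 3 Pde5a probe sets, while Pde5a probe set 1460118_at stays between 23.2 and 49.6 in all zones.

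Pde5a (1458341_x_at), the cGMP-specific phosphodiesterase that sildenafil inhibits, ran opposite to Prkg2 across zones I and II. Zone I read 55.6, 30.8, 40.4 and 64.8. Zone II read 21.1, 22.8, 13.7 and 18.6, and zone III read 93.5, 139, 97.1 and 93.3. The zones did not overlap. Pde5a fell by 1.30 on the log2 scale into zone II (SE 0.24, limma adjusted p = 0.00112) and rose by 2.48 from zone II to zone III (SE 0.24, adjusted p = 3.58e-06). Zone III was 2.26-fold above zone I (log2 difference 1.18, SE 0.24, adjusted p = 0.00179). The order was therefore III, I, II, and every step was larger than the spread. Within the runs the 3 differences were -1.80 to -0.97, 2.15 to 2.98 and 0.56 to 1.78.

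The level of Pde5a in zone II, and its mean in zone I, were under 50, where the fold depends on how low values are treated. With 16 added to every signal the fall from zone I to zone II was 0.84 in size on the log2 scale in place of 1.30 (adjusted p = 0.00169). With the median over its probe sets it was -2.21 (adjusted p = 0.00103). The suffix x in the name of 1458341_x_at marks a probe set some of whose probes may also match other transcripts. A probe set without that mark, 1455970_at, read 44.9 to 71.9 across zone I, 2.18 to 22.7 across zone II and 134 to 219 across zone III. It fell into zone II (log2 difference -3.11, adjusted p = 0.00312) and rose into zone III (4.54, adjusted p = 0.000121), but zone III against zone I was not called (1.43, SE 0.67, adjusted p = 0.112). The last probe set, 1460118_at, stayed under 50 on every array and was not called in a fit without the filter.

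Counted over the 7 genes, 5 could be tested. From zone I to zone II, 1 rose (Prkg2) and 2 fell (Npr2, Pde5a). Of all 11808 genes tested, 16% rose and 25.4% fell in that comparison. From zone II to zone III, 1 rose (Pde5a) and 1 fell (Prkg2), beside 30.8% and 22.7% of all genes. From zone I to zone III, limma called 2 higher (Prkg2, Pde5a) and 0 lower, beside 21.6% and 21.7%; at an unadjusted p under 0.05, Npr2 would be counted as lower. Calls were common in these comparisons, so with 5 genes the counts say little beyond the genes themselves. The 3 comparisons share arrays and are not independent.

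**Figure D3:**
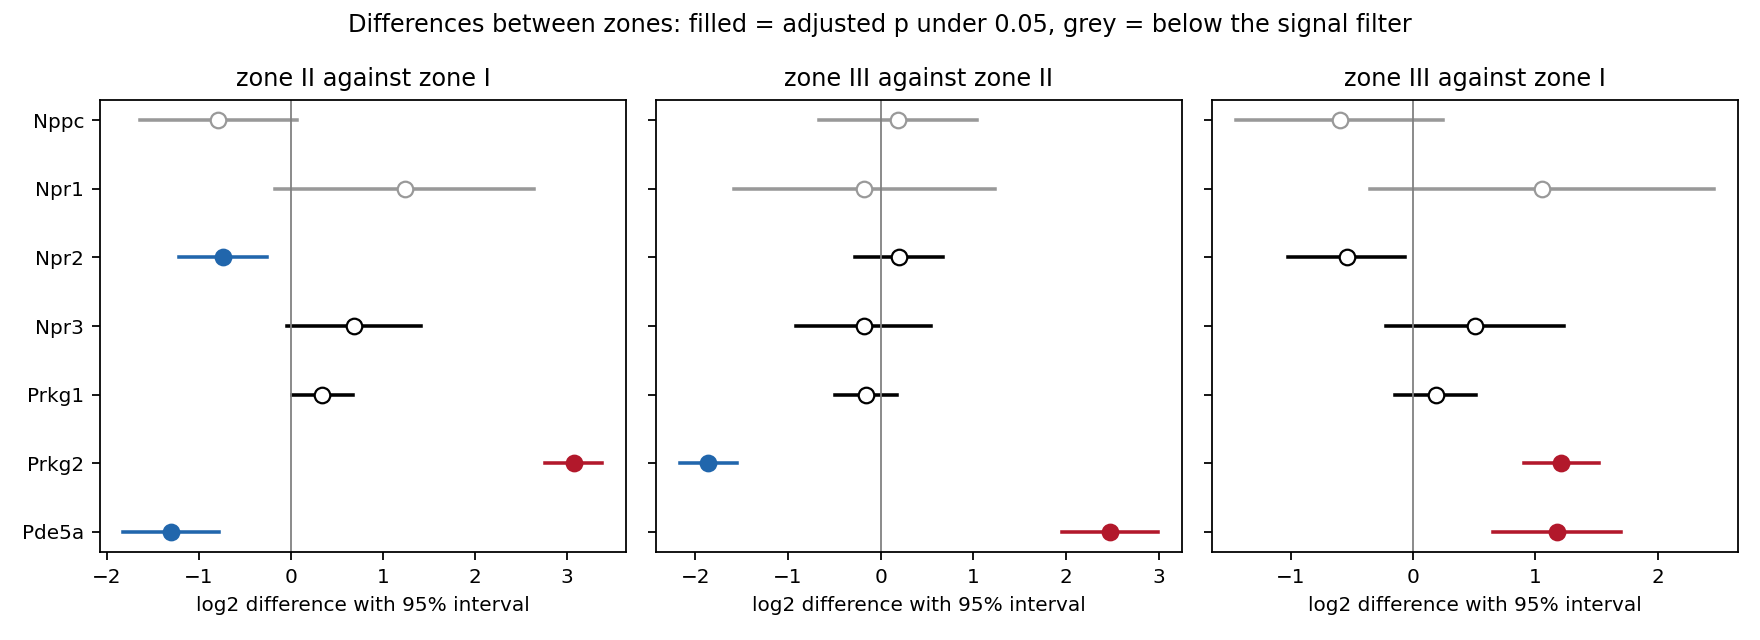
Difference of mean log2 signal between zones for each gene, later zone minus earlier, with its 95% interval from limma; filled points have an adjusted p under 0.05 and grey ones did not pass the signal filter. Prkg2 is the only gene to the right by over 3 in zone II against zone I, and Pde5a lies on the other side of 0 there and in zone III against zone II.

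Markers of other cells moved in the same order as some of these genes. In bulk tissue a change in the number of cells of a type cannot be told apart from a change in RNA per cell. The summed signal of the 8 prehypertrophic and hypertrophic markers was 1302 to 1466 across zone I, 12700 to 14280 across zone II and 8302 to 9850 across zone III, the same order as Prkg2. Among them Ihh, the Indian hedgehog ligand, averaged 61.4, 696 and 212 over zones I, II and III, and Col10a1, the collagen of hypertrophic cartilage, averaged 5.81, 2560 and 2351. Not all of the list had the order of its sum: Sp7 averaged 76.1, 479 and 726, and Runx3 averaged 43.8, 110 and 33.9. Of the 8 markers, 1 was called higher and 5 lower in zone III than in zone II. Against zone I, 6 were called higher in zone III. For Pde5a the order III, I, II was that of the endothelial sum, which ran from 1085 to 1846 across zone I, 373 to 827 across zone II and 3644 to 4062 across zone III. The macrophage sum had this order as well, and so had the sum of mural and smooth muscle markers, at 2402 to 3598, 1365 to 1928 and 4252 to 4930. Of the 12 endothelial genes, 8 averaged under 50 in zone II, among them Pecam1 and Cdh5, at 15.6 and 47.3. Of the 12 mural and smooth muscle genes, Myh11 and Cnn1, which define contractile smooth muscle, were near the floor in every zone, the highest mean being 13.0. The mural list was mixed: of its 10 genes tested, 4 were called higher and 4 lower in zone III than in zone I. Pdgfrb, a pericyte marker, averaged 230.1, 72.3 and 1501 over zones I, II and III. Other pericyte markers of the list ran otherwise, with Rgs5 at 291, 60.7 and 102 and Cspg4 at 933, 963 and 442. The perichondrium and fibrous tissue sum was highest in zone I, at 11047 to 15420, as Npr2 was. It was 2558 to 4825 across zone II and 6118 to 7321 across zone III. Of its 9 genes, 6 were called higher and 0 lower in zone III than in zone II, where Npr2 was not called. The sum of resting and periarticular cartilage markers was also highest in zone I, at 3908 to 4709. It was 862 to 1301 across zone II and 1105 to 1161 across zone III. Of its 6 genes tested, 5 were called lower and 0 higher in zone III than in zone I. Sfrp5 averaged 94.2, 112 and 40.5 over zones I, II and III, and Erg 507, 480 and 544. The part of these cells in the values of Prkg2, Pde5a and Npr2 was not tested.

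**Figure D4:**
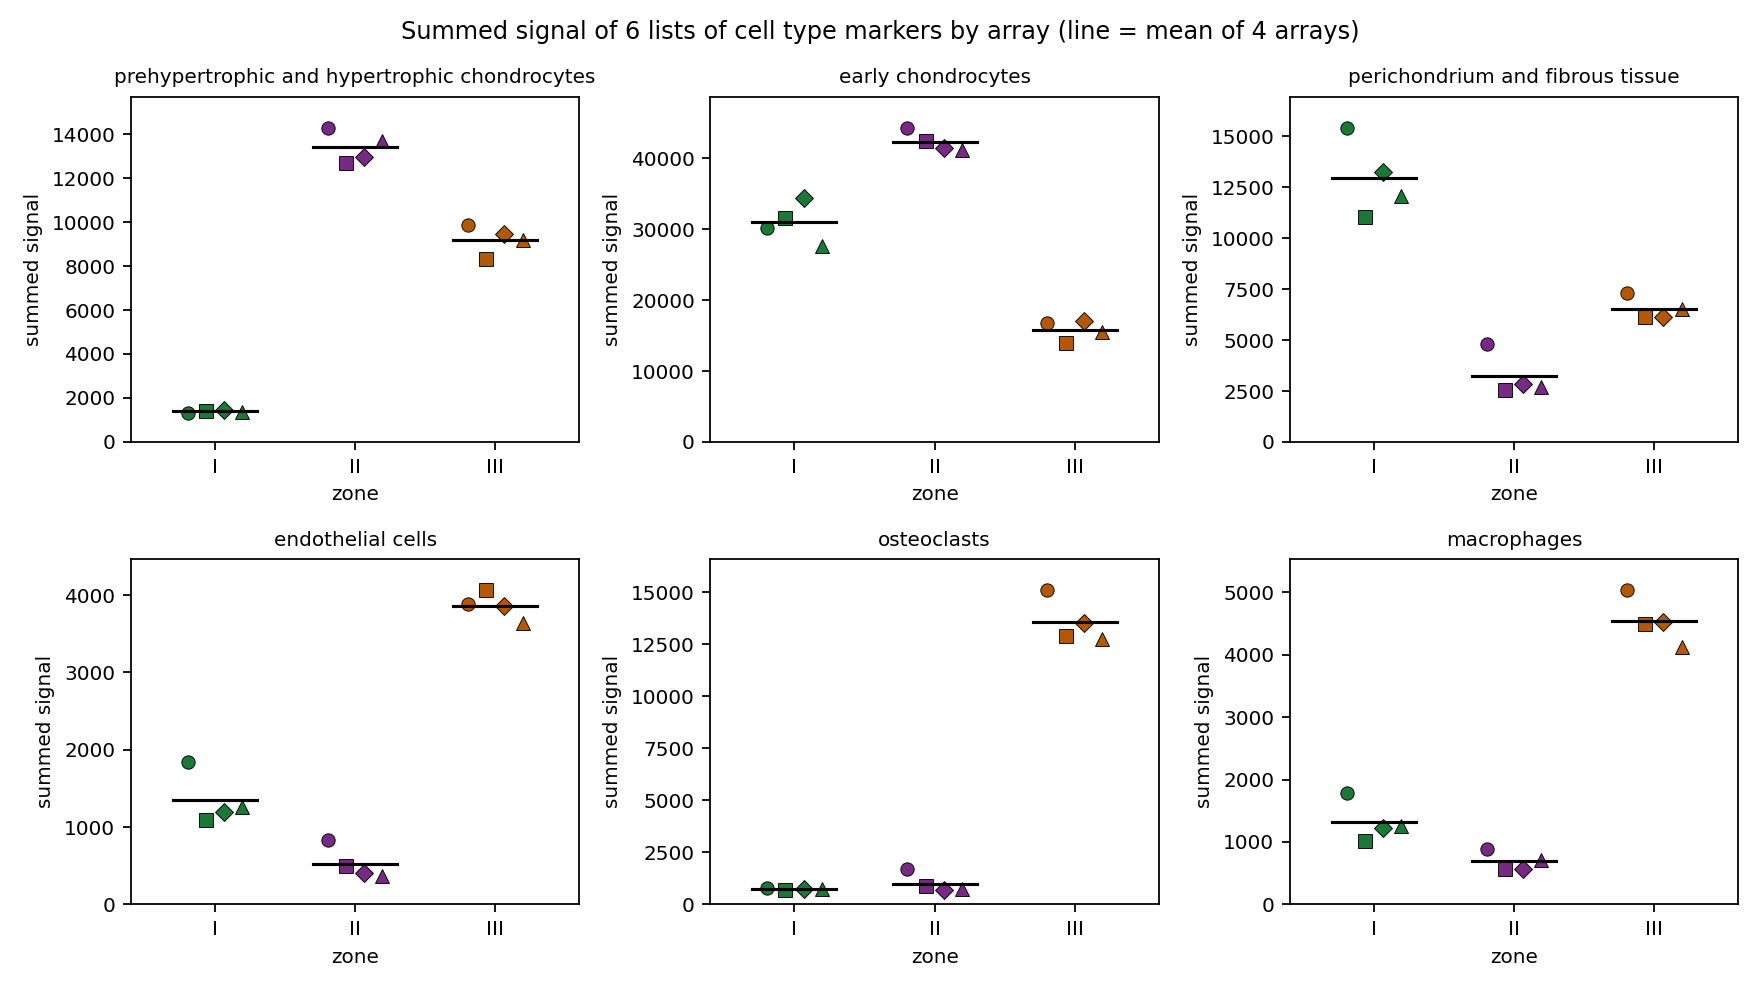
Summed signal (linear axis from 0) of 6 lists of cell type markers on each array, by zone; circles, squares, diamonds and triangles are arrays A to D and the line is the mean of 4 arrays. Prehypertrophic and hypertrophic markers are highest in zone II, at 12700 to 14280, and endothelial, osteoclast and macrophage markers are highest in zone III.

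Other genes of the pathway were taken from a list of 59, of which 51 had a probe set named by 1 symbol and 33 passed the filter. From zone I to zone II, 10 of the 33 rose and 9 fell, beside 16% and 25.4% of all genes tested. From zone II to zone III, 15 rose and 7 fell, beside 30.8% and 22.7%. From zone I to zone III, 14 rose and 5 fell, beside 21.6% and 21.7%. The counts by role below have the same shares beside them, and with so few genes per role they say little beyond the genes themselves. The median log2 differences of the 33 genes were -0.18, 0.39 and 0.39, beside -0.09, 0.08 and -0.01 over all 11808 genes. The genes with the largest changes are given by their role, and genes named only to complete a count of 5 or fewer were picked after their values were seen.

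**Figure D5:**
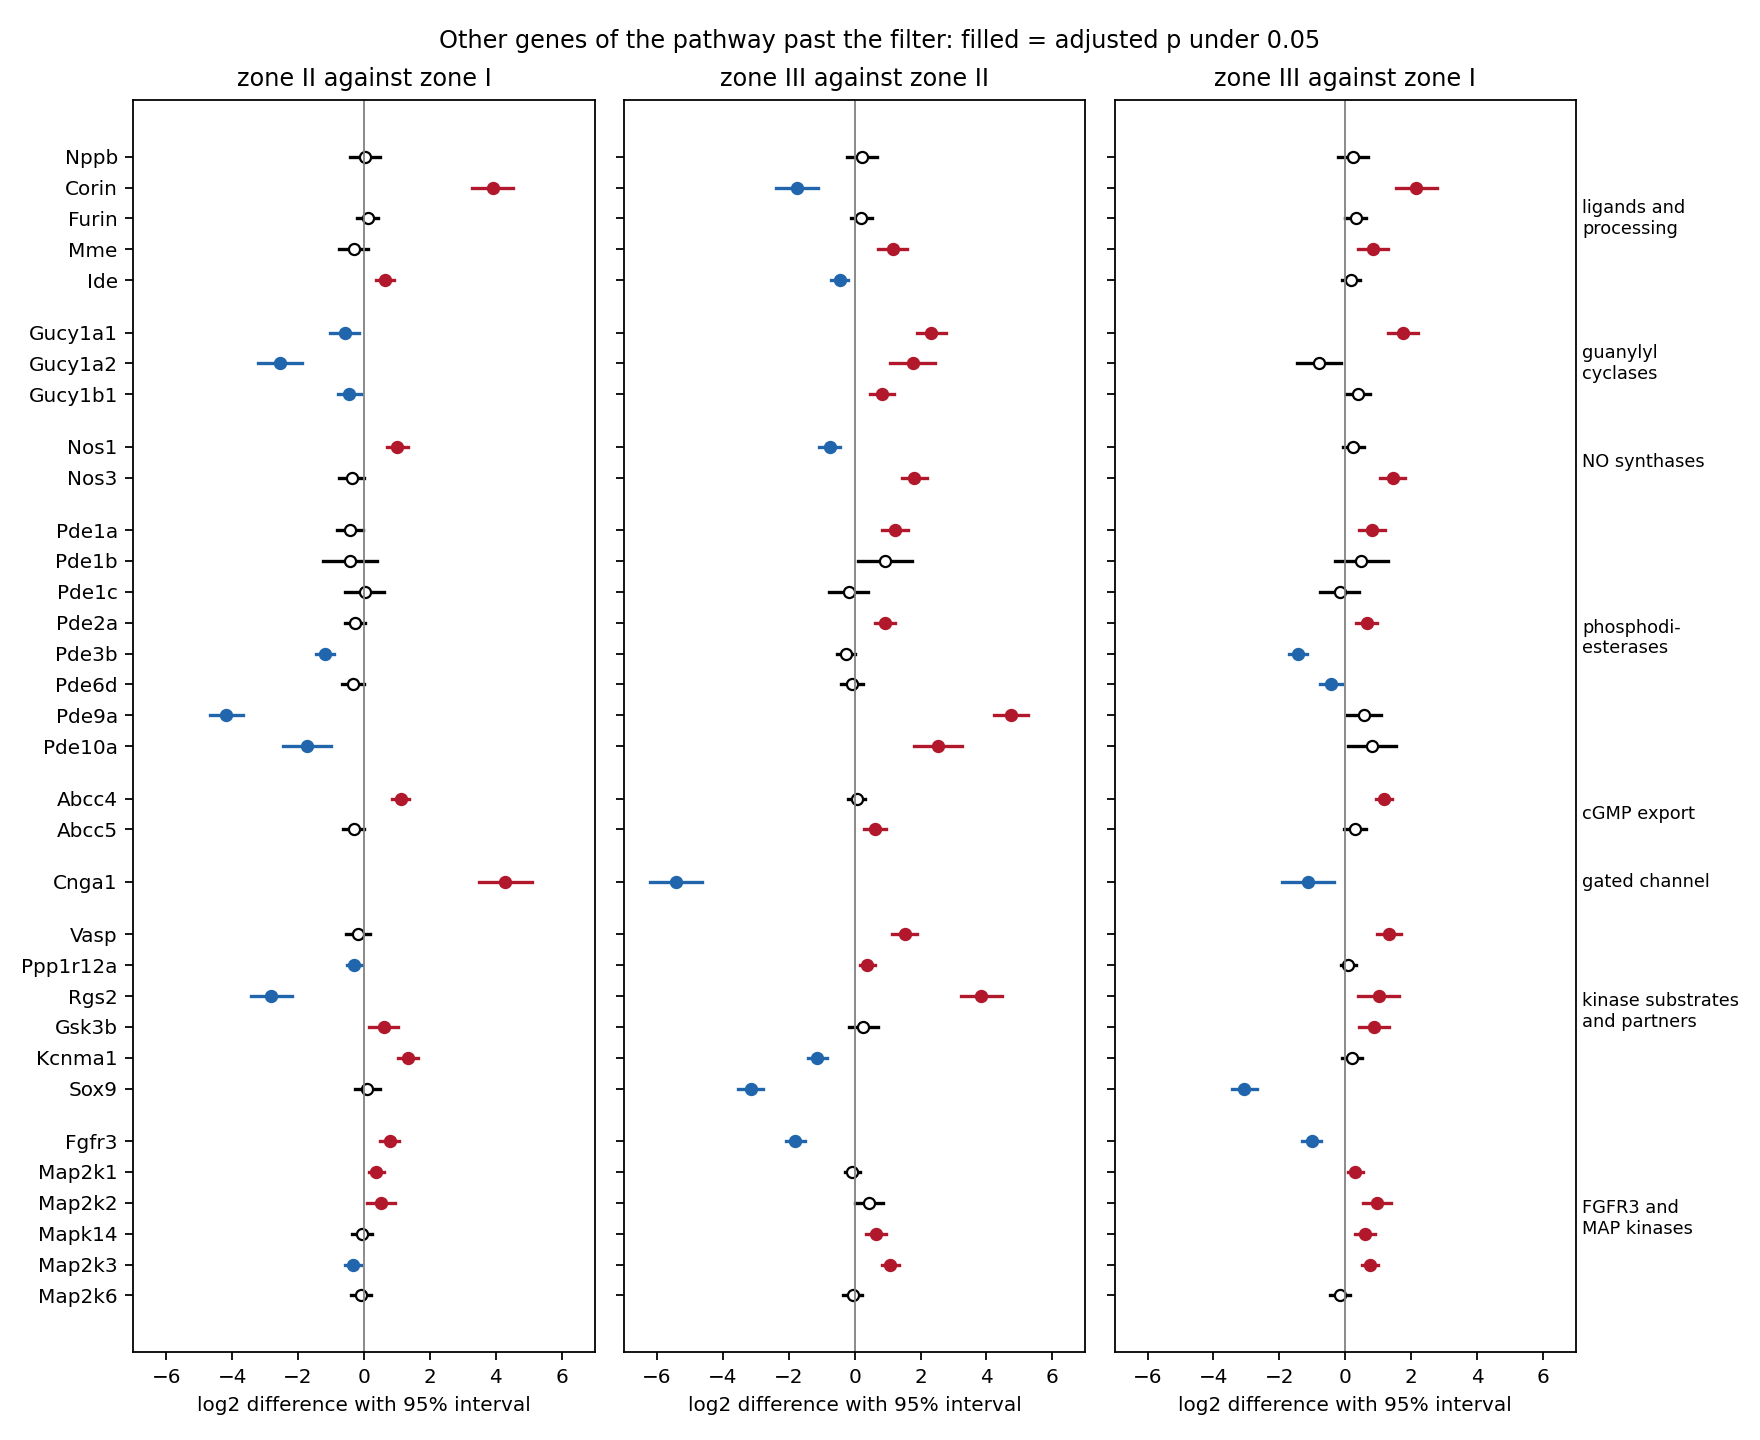
Difference of mean log2 signal between zones, later zone minus earlier, with its 95% interval from limma, for the 33 other pathway genes past the filter, grouped by role; red points rose and blue points fell at an adjusted p under 0.05, and open points were not called. Cnga1 and Corin lie farthest to the right in zone II against zone I, and Pde9a and Rgs2 in zone III against zone II.

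Among ligands and the enzymes that process or degrade them, 5 genes were tested, of which 2 rose from zone I to zone II, while 1 rose and 2 fell from zone II to zone III. Corin, the protease that cleaves pro-ANP, gave the largest change. Its zone I arrays read 9.44 to 19.6, its zone II arrays 144 to 280 and its zone III arrays 47.1 to 75.7, with no overlap. Corin rose by 3.90 on the log2 scale into zone II (SE 0.29, limma adjusted p = 1.02e-06) and fell by 1.74 into zone III (adjusted p = 0.000309). Ide, the insulin-degrading enzyme, which can also cleave natriuretic peptides, rose into zone II (0.64, adjusted p = 0.00161) and fell into zone III (-0.46, adjusted p = 0.0086) on 1 probe set, while its 3 other probe sets past the filter were not called in these comparisons. Mme, or neprilysin, which degrades natriuretic peptides, rose into zone III (1.15, adjusted p = 0.000495). Its other probe set past the filter was not called there (0.27, adjusted p = 0.3). Furin, which cleaves pro-CNP, was not called in any comparison, and neither was Nppb, the gene of BNP.

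The soluble guanylyl cyclases make cGMP in answer to nitric oxide. All 3 subunits tested fell into zone II and rose into zone III, as Pde5a did. Between zones III and I, only Gucy1a1 was called higher in zone III (1.75, adjusted p = 2.63e-05), as Pde5a was. Gucy1a2 (-0.80, adjusted p = 0.0579) and Gucy1b1 (0.385, adjusted p = 0.0806) were not called. The other Gucy1b1 probe set, 1420872_at, was called higher in zone III than in zone I (2.09, adjusted p = 0.00302). Gucy1a1 read 35.0 to 53.6 across zone I, 22.6 to 35.8 across zone II and 108 to 188 across zone III. Its rise into zone III was 2.33 on the log2 scale (SE 0.20, adjusted p = 1.64e-06), and both of its other probe sets rose as well. Its fall into zone II was near the threshold (-0.58, adjusted p = 0.0412), and neither other probe set was called there. Gucy1a2 fell by 2.56 into zone II (SE 0.31, adjusted p = 4.89e-05), from 75.4 to 98.8 on zone I arrays to 8.42 to 24.2 on zone II arrays. Gucy1b1, the shared beta subunit, fell into zone II (-0.44, adjusted p = 0.0494) and rose into zone III (0.83, adjusted p = 0.00107).

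Of the nitric oxide synthases, which supply those cyclases, Nos1 and Nos3 changed in opposite directions from zone II to zone III. Nos1, the neuronal form, read 129 to 182 across zone I, 244 to 366 across zone II and 166 to 182 across zone III. It rose by 1.01 into zone II (SE 0.15, adjusted p = 0.000224) and fell by 0.76 into zone III (adjusted p = 0.00102), and a further Nos1 probe set was called in the same directions. Nos3, the endothelial form, read 54.5 to 87.1 across zone I, 39.6 to 65.7 across zone II and 166 to 186 across zone III, and rose by 1.81 into zone III (SE 0.18, adjusted p = 4.14e-06). The change of Nos3 from zone I to zone II was not called (-0.38, adjusted p = 0.119). Nos2, the inducible form, stayed at or under 16.3 on all arrays and did not pass the filter.

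Among 8 other genes past the filter that are named phosphodiesterases, not all of which split cGMP, 3 fell into zone II and 4 rose from there to zone III. Pde9a, a cGMP-specific enzyme with high affinity, had the largest change of the 33 genes in size after Cnga1. Its zone I arrays read 123, 61.9, 109.8 and 94.1, its zone II arrays 6.0, 3.45, 6.73 and 5.33 and its zone III arrays 124, 141, 161 and 136. Zone II was the low zone on every array, and the highest zone I value stood just below the lowest of zone III. Pde9a fell by 4.17 on the log2 scale into zone II (SE 0.23, adjusted p = 1.12e-07) and rose by 4.74 into zone III (adjusted p = 2.58e-08). Zone II signals under 10 make these folds rest on the treatment of low values. Pde10a, which splits cAMP and cGMP, fell by 1.72 into zone II (adjusted p = 0.0017) and rose by 2.53 into zone III (adjusted p = 5.13e-05) on 1439618_at. Its other probe sets past the filter did not follow: 1419389_at was not called at either step, though it was higher in zone III than in zone I (1.39, adjusted p = 0.0138), and 1432490_a_at fell into zone III (-0.99, adjusted p = 0.00113). Pde3b, an enzyme that cGMP inhibits, read 868 to 1030.1 across zone I, 364 to 490.2 across zone II and 318 to 387 across zone III. It fell by 1.18 into zone II (SE 0.13, adjusted p = 2.1e-05) and was not called between zones II and III.

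The transporters that export cGMP from cells changed at different steps. Abcc4 read 32.5 to 43.7 across zone I, 73.8 to 89.2 across zone II and 77.0 to 90.4 across zone III. It rose by 1.12 into zone II (SE 0.12, adjusted p = 1.72e-05) and did not differ beyond its spread after that (0.06, adjusted p = 0.697), although centring on ribosomal protein genes gave a call there (0.46, adjusted p = 0.016). Abcc5 rose by 0.62 into zone III (SE 0.15, adjusted p = 0.00426), and 5 of its 7 other probe sets past the filter rose too. Only 1 cGMP-gated channel gene passed the filter. Cnga1, a channel subunit known from rod photoreceptors, read 9.83, 8.86, 15.6 and 31.7 in zone I. Zone II read 214, 353, 393 and 212. Zone III read 6.99, 4.77, 8.28 and 6.87. Cnga1 was thus high in zone II alone among the zones, with a rise of 4.29 (SE 0.37, adjusted p = 3.14e-06) and a fall of 5.42 (adjusted p = 2.09e-07). It has 1 probe set of 1 symbol, and its called difference between zones III and I (-1.13, adjusted p = 0.0271) lay wholly between signals under 32. That call was lost without zone I array C or D, without zone III array B or D, without the filter and with 16 added, with adjusted p values of 0.0507 to 0.112.

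Of 6 substrates and partners of the kinases, 2 rose and 2 fell into zone II, and 3 rose and 2 fell into zone III. Sox9, the chondrocyte transcription factor that type II kinase is known to restrain, read 481 to 764 across zone I, 581 to 818 across zone II and 65.7 to 90.3 across zone III. It was not called from zone I to zone II, where Prkg2 rose, and fell by 3.16 into zone III (SE 0.18, adjusted p = 5.02e-08). The arrays measure RNA and do not give the amount or activity of the Sox9 protein, so an action of the kinase on Sox9 was not tested. Kcnma1, the calcium-activated potassium channel that the type I kinase opens, read 107 to 149 across zone I, 269 to 339 across zone II and 124 to 158 across zone III. It rose by 1.33 into zone II (SE 0.14, adjusted p = 1.35e-05) and fell by 1.13 into zone III (adjusted p = 2.39e-05). Kcnma1 probe set 1425987_a_at changed less (0.45, adjusted p = 0.00623, and -0.40, adjusted p = 0.00916). Probe set 1440728_at was not called at either step (adjusted p = 0.212 and 0.726). Rgs2, a regulator of G protein signalling that the type I kinase phosphorylates, read 443 to 895, 54.6 to 149 and 1013 to 1317. It fell by 2.82 into zone II (adjusted p = 1.22e-05) and rose by 3.84 into zone III (adjusted p = 4.34e-07), and its 2 other probe sets past the filter did the same. Vasp, an actin regulator and a standard substrate of both kinases, read 589.9 to 673 in zone III against 165 to 309 in the other zones, and rose by 1.51 into zone III (adjusted p = 1.17e-05). Gsk3b, a kinase that the type II enzyme phosphorylates in chondrocytes, rose by 0.60 into zone II (adjusted p = 0.0343). Ppp1r12a, the targeting subunit of myosin phosphatase, fell by 0.29 into zone II (adjusted p = 0.0455) and rose by 0.39 into zone III (adjusted p = 0.00822). Its probe set 1429487_at was called at both steps in the same directions, 1437734_at only for the rise into zone III, and 1453163_at at neither.

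On the branch that CNP opposes, Fgfr3 was highest in zone II. It read 1486 to 1977 across zone I, 2922 to 3344 across zone II and 728 to 1017 across zone III, and the zones did not overlap. Fgfr3 rose by 0.79 into zone II (SE 0.13, adjusted p = 0.000587) and fell by 1.80 into zone III (adjusted p = 3.85e-07). It shares with Prkg2 the peak in zone II and differs in the order of the other zones, since Fgfr3 was higher in zone I than in zone III (-1.01, adjusted p = 6.12e-05) and Prkg2 lower. Fgfr3 and Sox9 also stand among the early chondrocyte markers. Of the 5 MAP kinase genes tested, the changes from zone I to zone II were between -0.33 and 0.53. From zone II to zone III, Map2k3 (1.09, adjusted p = 6.14e-06) and Mapk14 (0.66, adjusted p = 0.00165) rose.

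Genes with the most similar pattern were ranked by Pearson's correlation of log2 signal over the 12 arrays, which fall into 3 zones. For Prkg2 and Pde5a, whose zones did not overlap, r describes mainly the zone pattern. For Npr2, Prkg1 and Npr3, whose zones differed less, r also takes in differences between arrays of the same zone. For Prkg2 they were St8sia6, a sialyltransferase (r = 0.99), Cdh19, a cadherin (r = 0.99), and Nhej1, a DNA end-joining factor (r = 0.99). Their mean signals over zones I, II and III were 44.6, 296 and 99.6 for St8sia6, 25.7, 423 and 71.6 for Cdh19, and 19.2, 190.3 and 42.5 for Nhej1. For Pde5a they were Myzap, a protein of cell junctions (r = 0.98), Neto2 (r = 0.98) and Card10 (r = 0.98), each lowest in zone II and highest in zone III. For Npr2 they were Nkap (r = 0.92), Reck, a membrane inhibitor of metalloproteinases (r = 0.91), and Smarcal1 (r = 0.91), with Reck at 1403, 716 and 807 over the zones. Prkg1 came closest to Mindy1 (r = 0.93), Slc36a4 (r = 0.92) and Atg13 (r = 0.91), and Npr3 to Dctn5 (r = 0.89), Med29 (r = 0.85) and Msrb2 (r = 0.83).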

How the data were processed

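RNA of zones I, II and III was measured on 12 Affymetrix MOE 430 2.0 arrays. Per the deposited table, values are linear signal intensities, scaled by the authors to a common trimmed mean; they were analysed unchanged. The methods name GCRMA in GeneSpring GX, the submitters' processing notes name RMA, and a common trimmed mean is what neither leaves; which algorithm made the values is not stated there. It matters most for low signals. Scanner files were not used. The members and gene lists were chosen with earlier results of these data known.

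Columns were matched to zones by sample title, with 0 left over. Of 45101 probe sets, 64 controls were left out, and 34945 had 1 gene symbol, 932 several and 9160 none; names come from the platform annotation. Of the 59 other pathway genes, 8 lacked a probe set carrying that symbol and no other. The log2 of each signal was used without an offset. limma 3.58.1 in R 4.3.3 (lmFit, eBayes) fitted 3 zones on 12 arrays without covariates, keeping probe sets whose mean reached 50 in any zone (22255 probe sets). Benjamini-Hochberg adjustment ran over those probe sets in each comparison. The script was tested on simulated data with known changes. The labels do not say that a letter marks a litter. The deviations of same-letter arrays correlated at 0.14 to 0.19 between zones I and III, and at -0.13 to 0.26 over all comparisons. In 8 of 12 such pairs the earlier zone's array correlated more with its own letter than with any other letter of the later zone. The main fit did not use letters as pairs, so it leaves out a pairing by litter if letters mark litters. A fit with the letter as a block was run as an alternative. Runs of the fluidics station, 3 of 4 arrays each, were tried as a block. Other filters, scalings and offsets, other limma settings, medians over probe sets, a fold threshold and each array left out were tried as alternatives. Named are all members, of other pathway genes up to 4 called genes per comparison and direction with the largest change and all of sub-lists of 3 genes or fewer, the 3 most similar genes per member, and markers. No protein or promoter sequence is printed.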

Additional observations from a re-analysis of the deposited data

Results flagged for a closer look

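The Pde5a signal of zone III array B, 139, stood apart from the other zone III arrays, which lay between 93.3 and 97.1. Its gap to the nearest value took up 0.92 of the range of the 4 arrays, above Dixon's 95% limit for 4 values. It was 1 of 21 sets of 4 values looked at, and chance flags about 1 in 20. The Pde5a probe set 1455970_at was also highest on this array, at 219 against 134 to 137. Without it Pde5a still rose from zone II to zone III (log2 difference 2.34, limma adjusted p = 1.99e-05) and from zone I to zone III (1.04, adjusted p = 0.00683).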

How the results depend on the processing

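Prkg2 and Pde5a kept their direction and their call in all 3 comparisons under all 24 alternatives to their values, which covered filters, scalings, fits, blocks and each array left out. Their log2 differences ranged from 2.26 to 3.20, -2.09 to -1.35 and 0.92 to 1.37 for Prkg2 (zone II against I, III against II, III against I) and from -2.21 to -0.84, 1.79 to 3.51 and 0.94 to 1.34 for Pde5a. With the replicate block by array letter, 5 members in place of 3 were called between zones II and I, since Npr3 (0.69, adjusted p = 0.0321) and Prkg1 (0.34, adjusted p = 0.0417) were added; 8 of 12 same-letter pairs correlated over 0.1 and the letters were not taken as pairs. The block left the members' counts at 2 and 2 in the other comparisons and gave 16, 23 and 19 other pathway genes in place of 19, 22 and 19. No other alternative moved a count of members or pathway genes by over 1.5 times. Directions turned only in changes between zones III and II that were not called: Npr2 (-0.033 with median centring), Npr3 (0.22 with ribosomal centring; -0.40 to 0.19 with 1 array left out, the highest without zone III array B), Prkg1 (0.24 with ribosomal centring) and Abcc4 (-0.21 with quantile normalization, -0.17 with median centring); the cause was not tested. Centring on ribosomal protein genes moved the median of all genes to -0.33, 0.48 and 0.15, and median centring to 0.04, -0.14 and -0.10, from -0.09, 0.08 and -0.01. Among named pathway genes, calls were lost for Cnga1 between zones III and I under 6 alternatives, Pde10a between II and I and Abcc5 between III and II with the median of probe sets, and Nos1 between III and II with ribosomal centring (-0.36, adjusted p = 0.0674). Calls were gained between zones II and I for Nos3 (3 alternatives, among them leaving out zone II array B, adjusted p = 0.0361) and Abcc5 (leaving out zone I array B, adjusted p = 0.0284, and ribosomal centring), and with ribosomal centring for Abcc4 between zones III and II (0.46, adjusted p = 0.016) and Abcc5 between zones III and I (0.45, adjusted p = 0.0327). Values under 50 (such as Nppc, Npr1, 4 of 12 arrays for Npr3, zone II of Pde5a and Pde9a) are limited by the background of the array.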
